A study of Mus musculus with 6 samples.

Results

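The genes described here are 42 listed genes of fatty acid uptake, fatty acid synthesis, fatty acid oxidation, cholesterol metabolism and the PPAR nuclear receptors. They were taken as a fixed list of gene symbols, and each was read from the array row that was paired with its symbol alone and had the highest mean over all arrays. Of the 42, 40 had such a row, among 19938 genes in all. Acsl3 was paired with a second gene on the same row, and Acsl1 was not analysed here. The study compared tumors of Renca, a carcinoma line that arose in the kidney of a BALB/c mouse, grown in the kidney or under the skin of BALB/c mice. The 3 intrakidney tumors followed injection into the outer kidney cortex, the 3 subcutaneous tumors followed injection under the skin, and both kinds were taken on day 12, each from its own mouse. All tumors stem from 1 cell line and were measured whole, so that host cells of either site are part of each sample, and in such bulk RNA fewer cells of a type cannot be told apart from less RNA per cell. The age of the mice is not part of the sources used here.

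Cells take up fatty acids released from lipoproteins by lipoprotein lipase, carry them bound to fatty acid-binding proteins and activate them to acyl-CoA before use. They can also make fatty acids from citrate through ATP citrate lyase, acetyl-CoA carboxylase and fatty acid synthase, under control of SREBP-1, while SREBP-2 drives the genes of cholesterol synthesis when membrane sterol is low. Mitochondria oxidise fatty acids after import by the carnitine palmitoyltransferases, and the PPAR and LXR receptors switch on oxidation, storage and sterol efflux genes in response to lipids. Kidney tubule and liver rely on fatty acid oxidation, and fat cells are rich in uptake and storage genes.

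RNA of each tumor was read on 1 array, as log2 expression values after RMA, with array medians of 7.08 to 7.11. Precision is limited by there being 3 arrays per group. Renal epithelial genes were read in both groups, with a mean over 9 of them of 9.33 to 9.48 in intrakidney and 9.45 to 9.50 in subcutaneous tumors: Cdh16, a kidney cadherin gene, measured 11.66, 11.81 and 11.46 in the intrakidney tumors and 11.51, 11.55 and 11.60 in the subcutaneous tumors. Of the 9, 4 were higher and 5 lower on average in intrakidney tumors, and 1 was lower without overlap (6.53% of all genes were). That gene, Cdh1, measured 9.09, 9.53 and 9.30 in intrakidney and 9.78, 9.91 and 9.79 in subcutaneous tumors (adjusted p = 0.209 with limma). Intrakidney tumor 3 stood apart through liver transcripts. Alb, the serum albumin gene of hepatocytes, read 5.88, 7.20 and 11.83 in intrakidney tumors 1, 2 and 3, whereas subcutaneous arrays spanned 5.50 to 5.60. Averaged over 7 measured hepatocyte genes the levels were 5.48, 6.01 and 8.91 against 5.45 to 5.66, and over 20 tubule genes of the proximal segment 6.44, 6.85 and 7.35 against 6.35 to 6.49. Intrakidney tumor 1 thus lay inside the range of the subcutaneous tumors on both lists, while intrakidney tumors 2 and 3 lay above it. Fibroblast genes were lower on average in intrakidney tumors (8.97 ± 0.35 against 9.47 ± 0.07, SD, n = 3 per group), and adipocyte genes (7.14 ± 0.06 against 6.46 ± 0.11) and endothelial genes (8.47 ± 0.02 against 8.24 ± 0.07) were higher. The fibroblast list mean in intrakidney tumor 3 was 9.37, close to the 9.41 to 9.55 of the subcutaneous tumors. Of 10 measured fibroblast genes 8 lay below 0 and 5 were lower without overlap (6.53% of all genes were). Postn, the periostin gene, fell by 1.66 (adjusted p = 0.0460 with limma), while Dcn and Fap lay above 0, at 0.46 and 0.06, with overlap. The part of these cell types in the results on lipid genes was not tested, except where values without single arrays are given.

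**Figure D1:**
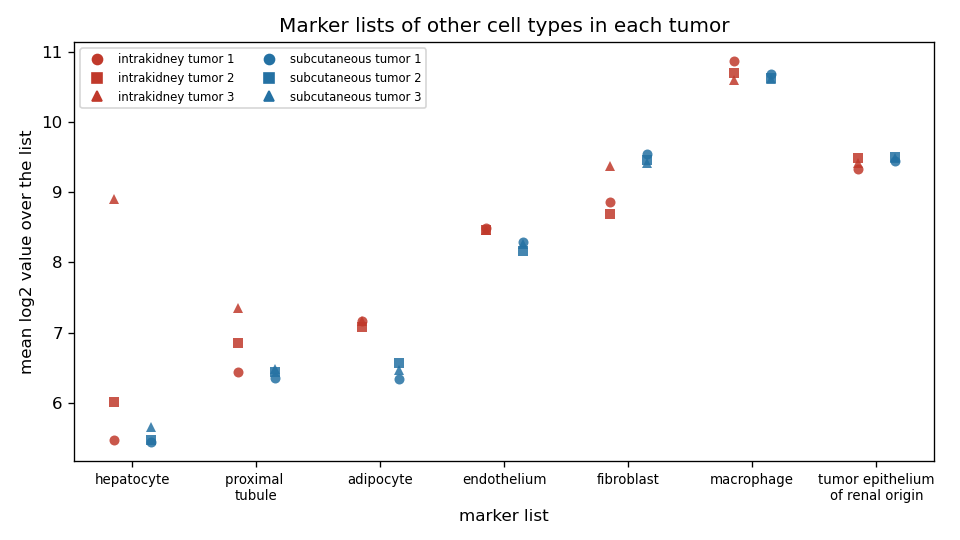
Mean log2 value over each marker list (vertical axis) in each tumor, with intrakidney tumors in red and subcutaneous tumors in blue and 1 symbol per tumor number. The hepatocyte list reads 8.91 in intrakidney tumor 3 and at most 6.01 in the other arrays, while the adipocyte and endothelial lists are higher in all intrakidney tumors.

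No lipid gene of the list passed the test of the difference between sites. With limma over all 19938 genes and Benjamini-Hochberg adjustment, 0 of the 40 had an adjusted p under 0.05, a threshold that 0.231% of all genes passed, and the smallest adjusted p among them was 0.142 (Lpl). At an unadjusted p under 0.05, 8 of the 40 lay on that side, where 8.43% of all genes did. Of these 8, 3 were higher in intrakidney tumors (4.72% of all genes) and 5 lower (3.71%). The 3 intrakidney arrays did not overlap with the 3 subcutaneous arrays in 15 of the 40 genes (37.5%), 9 higher and 6 lower, a state shown by 14.9% of all genes. Genes with higher values show it more often: among the 11963 genes at or above the 40th percentile of mean value the share was 19.7%, and 14 of the 36 lipid genes in that range showed it. Most differences were small. The median log2 difference (intrakidney minus subcutaneous, as throughout) was 0.04 over the 40 genes and -0.0058 over all genes, and the median size was 0.10 against 0.08. For 35 of the 40 the 95% interval of the difference lay within 0.5 on the log2 scale in either direction. By role the median differences were 0.08 for uptake, 0.01 for synthesis, 0.05 for oxidation, -0.10 for cholesterol and 0.07 for the PPAR genes.

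**Figure D2:**
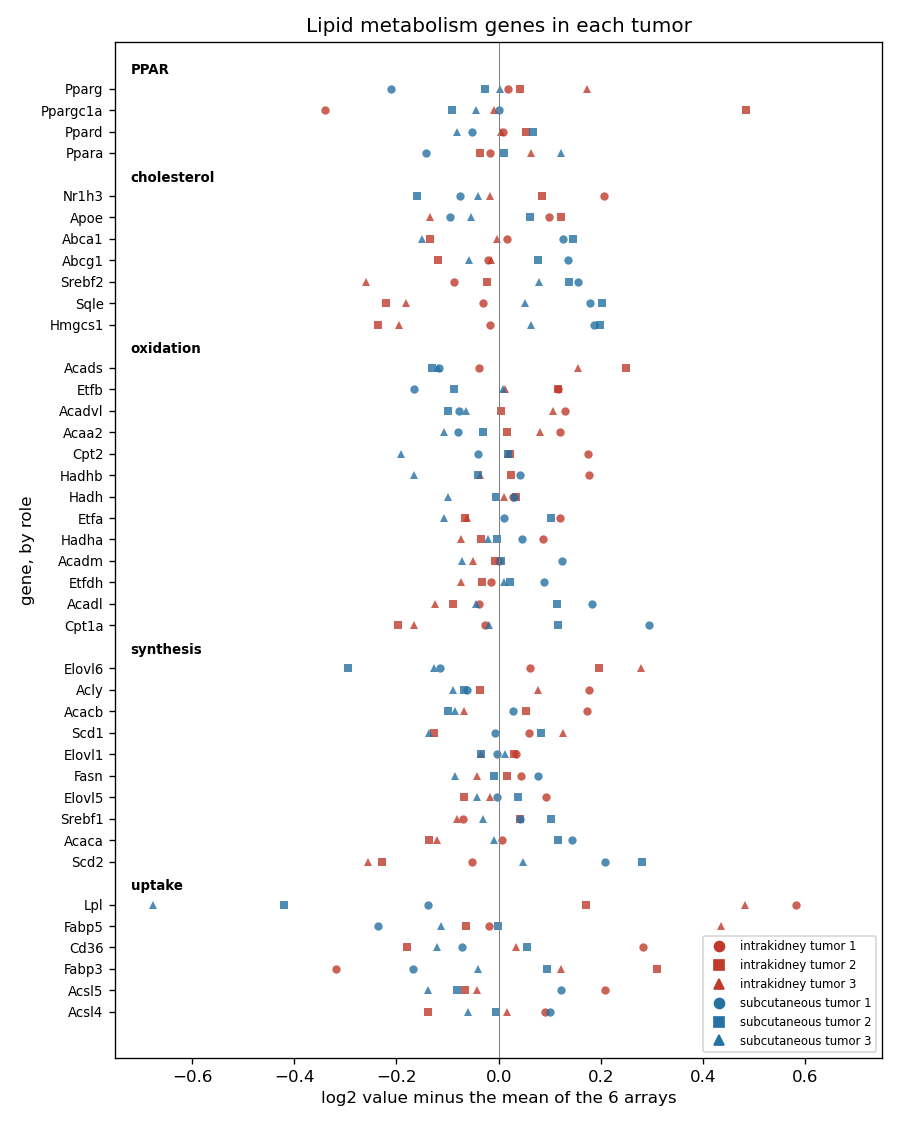
Log2 value of each of the 40 lipid genes minus its mean over the 6 arrays (horizontal axis), by role, with intrakidney tumors in red and subcutaneous tumors in blue. Lpl shows the widest separation, with all intrakidney tumors to the right, and Hmgcs1, Sqle, Srebf2 and Scd2 have all intrakidney tumors to the left.

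Among the uptake genes, Lpl, which encodes the lipase that frees fatty acids from circulating triglyceride, lay highest in intrakidney tumors relative to subcutaneous ones. It measured 8.92, 8.51 and 8.82 in intrakidney tumors 1, 2 and 3 and 8.20, 7.92 and 7.66 in subcutaneous tumors 1, 2 and 3. Every intrakidney array was above every subcutaneous array, with a gap of 0.31 between the groups. The difference was 0.82 ± 0.16 on the log2 scale (SE, 1.77-fold, 95% interval 0.46 to 1.19), at an adjusted p of 0.142 with limma. With an intensity trend and robust prior in the same model, Lpl passed (adjusted p = 0.0341), and with array weights it passed as well (0.0136). The weights were 2.57 for intrakidney tumor 3, the array with the liver transcripts, and 3.55 for subcutaneous tumor 2. The other arrays had weights of 0.35 to 0.76, so that the weighted fit rested mainly on 1 array per group.

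The other uptake genes overlapped between sites. Fabp5, a carrier of fatty acids in epithelial cells and macrophages, measured 7.95, 7.91 and 8.40 in intrakidney and 7.73, 7.97 and 7.86 in subcutaneous tumors, so that intrakidney tumor 3 alone stood above the rest. Cd36, the fatty acid translocase and scavenger receptor, measured 9.46, 9.00 and 9.21 against 9.10, 9.23 and 9.06, a difference of 0.09 (95% interval -0.19 to 0.38). Without intrakidney tumor 1 the Cd36 difference was -0.03. Fabp3, a carrier typical of heart and muscle, differed by 0.08 with an intrakidney range of 5.96 to 6.59 that enclosed the subcutaneous range of 6.11 to 6.37. The acyl-CoA synthetase genes Acsl5 and Acsl4, whose enzymes activate fatty acids, differed by 0.07 and -0.02.

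**Figure D3:**
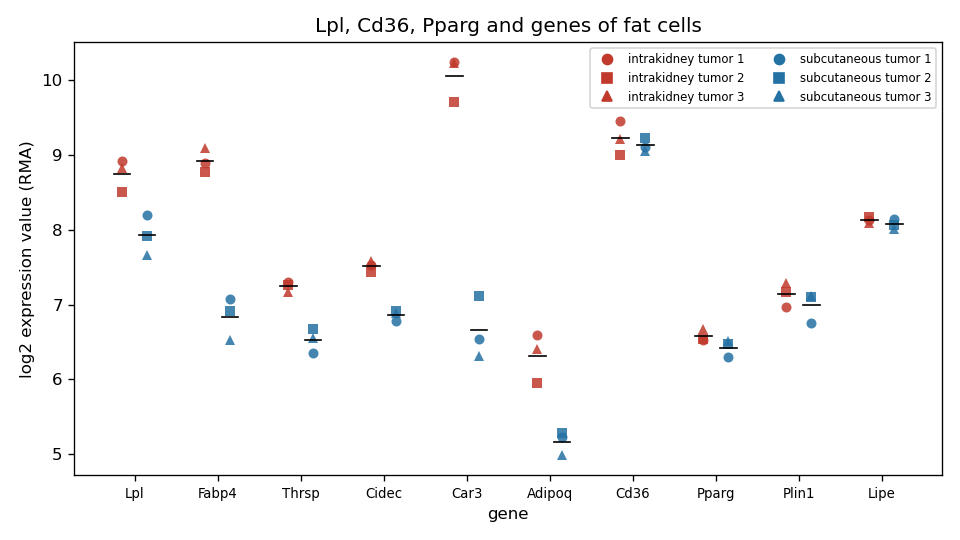
Log2 expression value (vertical axis) of Lpl, Cd36 and Pparg beside genes typical of fat cells in each tumor, with a black line at each group's mean. Lpl, Fabp4, Thrsp, Cidec, Car3 and Adipoq have every intrakidney tumor above every subcutaneous tumor, while Cd36, Plin1 and Lipe overlap between the groups.

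Some genes of fat cells were higher in the same tumors as Lpl. Of 9 measured adipocyte genes 9 lay above 0, where 52.0% of all genes lay below 0, and 4 were higher without overlap (8.41% of all genes were). Their median was 0.15 against -0.0058 over all genes. The 2 that passed the test were Car3, a carbonic anhydrase gene abundant in fat (3.41 ± 0.22, SE, adjusted p = 0.00632), and Cidec, which the wider pathway list holds too and which is described there. Adipoq, the adiponectin gene, measured 6.59, 5.95 and 6.40 against 5.23, 5.28 and 4.99. The adipocyte list mean spanned 7.07 to 7.17 at the kidney site and 6.35 to 6.57 under the skin. Lipe, the hormone-sensitive lipase gene, and Lep, the leptin gene, differed by 0.06 and 0.03, and Plin1, which coats fat cell droplets, by 0.15. Pnpla3 and Cidea differed by 0.05 and 0.00062, and all of these genes overlapped between sites. Endothelium, on whose surface lipoprotein lipase acts, showed 7 of 10 measured marker genes without overlap, all higher (8.41% of all genes were), with Emcn past the threshold (0.72, adjusted p = 0.0460). The others, Pecam1, Esam and Cldn5, overlapped, at 0.0088, -0.015 and -0.046. Gpihbp1, which anchors the lipase to capillaries, measured 7.96, 8.61 and 8.36 against 8.14, 8.12 and 8.26. Whether the fat cell or endothelial content has a part in the Lpl difference was not tested.

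The fatty acid synthesis genes lay on both sides of 0, 7 of 10 above and 3 below. Elovl6, which elongates palmitate to stearate, measured 7.20, 7.34 and 7.42 in intrakidney and 7.02, 6.84 and 7.01 in subcutaneous tumors. All intrakidney values were higher, and the Elovl6 difference was 0.36 ± 0.09 (SE, 1.28-fold, adjusted p = 0.269). Scd2, a stearoyl-CoA desaturase that makes monounsaturated fatty acids, measured 12.91, 12.73 and 12.70 against 13.17, 13.24 and 13.01. All its intrakidney values were lower, and the difference was -0.36 ± 0.09 (SE, adjusted p = 0.303). The related desaturase gene Scd1 overlapped fully, with values of 11.74, 11.56 and 11.81 against 11.68, 11.77 and 11.55. The within-array difference of Scd2 and Scd1 was 0.89 to 1.17 in intrakidney and 1.46 to 1.49 in subcutaneous tumors, which differ by -0.40 in the mean. This pair was chosen after its values were seen.

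The genes of the enzymes that build palmitate had differences near 0 or small ones. Fasn, the fatty acid synthase gene, measured 10.31, 10.28 and 10.22 against 10.34, 10.26 and 10.18, a difference of 0.01 with a 95% interval of -0.16 to 0.18. Acaca, the cytosolic acetyl-CoA carboxylase gene, measured 10.01, 9.87 and 9.89 against 10.15, 10.12 and 9.997, so that intrakidney tumor 1 lay just inside the subcutaneous range. Acly, the gene of ATP citrate lyase, did not overlap (10.34 to 10.56 against 10.29 to 10.32), with a gap of 0.02 and a difference of 0.15 (adjusted p = 0.698). Acacb, the carboxylase gene whose product restrains mitochondrial import, differed by 0.10, the elongase genes Elovl1 and Elovl5 by 0.02 and 0.01, and Srebf1, which encodes SREBP-1, by -0.07 (95% interval -0.25 to 0.10).

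The oxidation genes lay on both sides of 0, 7 above and 6 below, and their intervals all lay within 0.5 of 0 on the log2 scale. Acads, the short-chain acyl-CoA dehydrogenase gene, measured 8.85, 9.14 and 9.05 in intrakidney and 8.78, 8.76 and 8.77 in subcutaneous tumors. Its intrakidney values were all higher and spread more widely (SD 0.15 against 0.0068), with a difference of 0.24 ± 0.09 (SE, adjusted p = 0.492). The proximal tubule list mean was 6.44, 6.85 and 7.35 in intrakidney tumors 1, 2 and 3, highest in tumor 3, while Acads was highest in tumor 2. The part of tubule RNA in the Acads difference was not tested beyond the fit with the tubule mean as a covariate. Cpt1a, the gated entry enzyme of mitochondrial import, went the other way. It measured 9.69, 9.52 and 9.56 against 10.02, 9.84 and 9.70, which left a gap of 0.01, and differed by -0.26 (95% interval -0.49 to -0.03, adjusted p = 0.524).

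Acadvl, the very-long-chain dehydrogenase gene, measured 9.16, 9.04 and 9.14 against 8.95, 8.93 and 8.97, higher in every intrakidney array by a small margin (0.16 ± 0.07, SE). Etfb, an electron transfer flavoprotein subunit gene, and Acaa2, the mitochondrial thiolase gene, also did not overlap and differed by 0.16 and 0.14. Etfdh, whose enzyme passes these electrons to ubiquinone, was lower without overlap, at -0.08. Of the remaining oxidation genes, Cpt2 and Hadhb lay at 0.14 and 0.11, Hadh at 0.05, and Etfa, Hadha, Acadm and Acadl at -0.0045, -0.01, -0.04 and -0.17. Hadha and Hadhb encode both subunits of the mitochondrial trifunctional protein, and their differences had standard errors of 0.07 and 0.09. The mean over the 13 genes was 10.22, 10.16 and 10.14 in intrakidney and 10.18, 10.16 and 10.08 in subcutaneous tumors, which overlap.

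Further related genes were set side by side within arrays as a description, since these pairs were chosen after their values were seen. Cpt1a against Cpt2 differed between sites by -0.40, Acadl against Acads by -0.41, and Elovl6 against Elovl5 by 0.35. For the transcription factor genes Srebf2 and Srebf1 the value was -0.17.

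**Figure D4:**
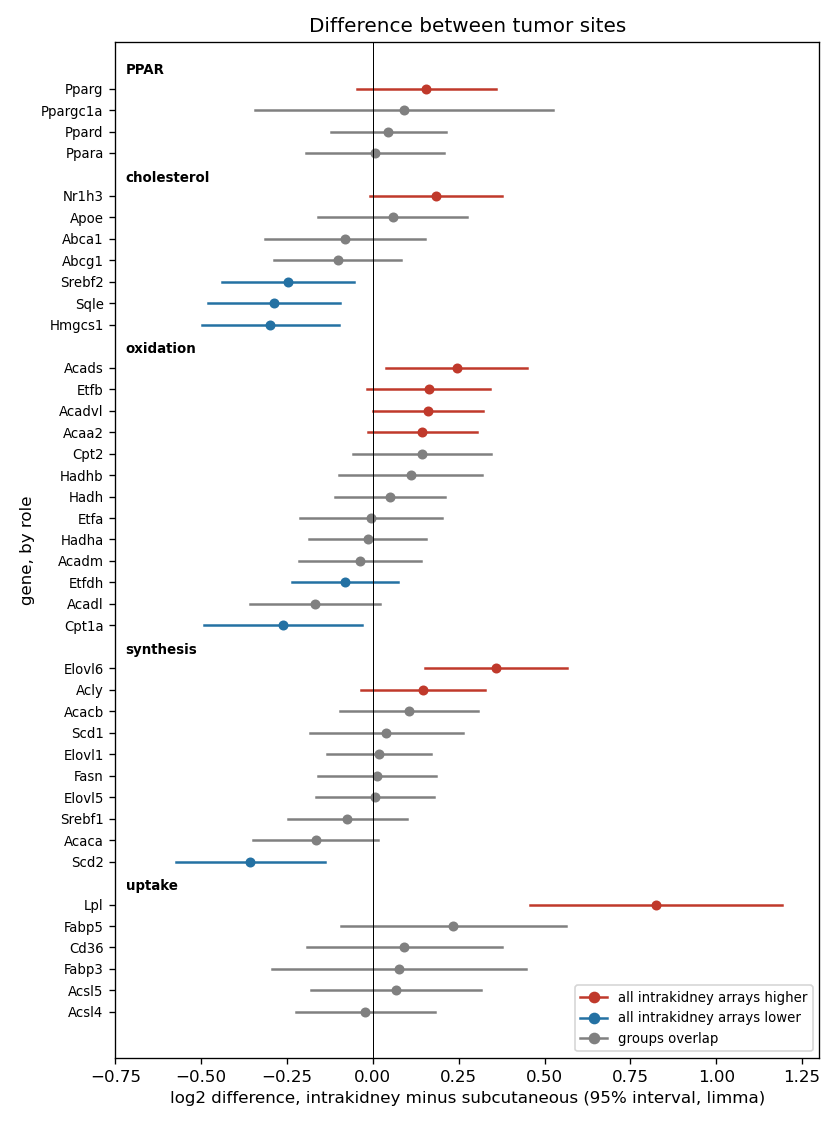
Log2 difference between sites for each of the 40 lipid genes (points) with its 95% interval from limma (lines), by role. Red and blue mark genes whose 3 intrakidney arrays are all higher or all lower than the 3 subcutaneous arrays. The Lpl interval, 0.46 to 1.19, lies farthest from 0.

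In the cholesterol group the synthesis genes and their regulator lay lower in intrakidney tumors. Hmgcs1, which makes HMG-CoA at the start of the mevalonate pathway, measured 10.73, 10.51 and 10.55 in intrakidney and 10.93, 10.94 and 10.81 in subcutaneous tumors. Sqle, the squalene epoxidase gene, measured 11.57, 11.38 and 11.42 against 11.78, 11.80 and 11.65. Srebf2, which encodes SREBP-2, measured 11.19, 11.25 and 11.01 against 11.43, 11.41 and 11.35. In all 3 genes every intrakidney value was below every subcutaneous value. The differences were -0.30 ± 0.09, -0.29 ± 0.08 and -0.25 ± 0.08 (SE), with adjusted p = 0.373, 0.377 and 0.450 with limma, so that none passed. With array weights all 3 passed (adjusted p = 0.0267, 0.0292 and 0.0471). In that fit 624 of all 19938 genes passed, against 46 in the fit without weights. The weighted fit rested mainly on intrakidney tumor 3, the array with the liver transcripts (weight 2.57), and on subcutaneous tumor 2 (3.55).

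Of the sterol transport genes, Abca1 and Abcg1, which export cholesterol from the cell, differed by -0.08 and -0.10 with overlapping groups. Of the pair, Abca1 measured 8.86, 8.70 and 8.84 against 8.97, 8.98 and 8.69, and Abcg1 measured 8.45, 8.35 and 8.46 against 8.61, 8.55 and 8.41. Apoe, the apolipoprotein E gene, differed by 0.06. Nr1h3, which encodes the sterol sensor LXR alpha and is high in macrophages, measured 8.91, 8.79 and 8.68 against 8.62, 8.54 and 8.66, a difference of 0.18 (adjusted p = 0.620) with a gap of 0.02. General macrophage genes had a list mean of 10.86, 10.70 and 10.59 in intrakidney and 10.60 to 10.68 in subcutaneous tumors. Both this mean and Nr1h3 were highest in intrakidney tumor 1. In intrakidney tumor 3 the mean lay below every subcutaneous array and Nr1h3 above every one. The part of macrophage content was not tested. Of 15 further genes of efflux and storage 10 lay below 0, with a median of -0.08, and 6 were lower and 2 higher without overlap, where 6.53% and 8.41% of all genes were. The lower ones were Abca7, Npc1, Npc2, Pltp, Mylip and Cyp27a1, at -0.27 to -0.08, and the higher ones Scarb1 and Ch25h. No test compared the efflux genes with the synthesis genes.

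The other genes of cholesterol synthesis and its control lay on the same side as Hmgcs1 and Sqle. Of 20 measured genes of that list 18 lay below 0, with a median of -0.22, 10 had an unadjusted p under 0.05 and all 10 were lower, and 11 were lower without overlap and 0 higher. Over all genes 3.71% were lower at that p and 6.53% were lower without overlap (8.07% of the genes at or above the 40th percentile). None of the 20 passed the adjusted threshold. Stard4, a sterol carrier gene, measured 9.73, 9.73 and 9.59 against 10.01, 10.16 and 9.97 (-0.36 ± 0.08, SE, adjusted p = 0.220). Insig1, whose protein retains SREBPs in the endoplasmic reticulum, measured 11.11, 10.96 and 11.16 against 11.45, 11.49 and 11.33 (-0.34 ± 0.08, SE, adjusted p = 0.265).

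Further genes of the list were picked for mention after their values were seen. Hsd17b7, which acts late in sterol synthesis, had the lowest difference at -0.48, and the sterol methyl oxidase gene Msmo1, the squalene synthase gene Fdft1, the lanosterol demethylase gene Cyp51 and the mevalonate decarboxylase gene Mvd lay at -0.32, -0.37, -0.33 and -0.30. Pmvk and Dhcr7, at 0.05 and 0.02, were the 2 above 0. Intrakidney tumor 1 lay nearest to the subcutaneous tumors in several of these genes: Hsd17b7 measured 10.86, 10.44 and 10.45 against 11.10, 11.12 and 10.97, and Cyp51 measured 10.16, 9.87 and 9.90 against 10.31, 10.41 and 10.18. The list mean was 10.10, 9.99 and 9.97 in intrakidney and 10.24, 10.26 and 10.18 in subcutaneous tumors. The median was -0.27 without intrakidney tumor 1, -0.16 without intrakidney tumor 3, and -0.13 with intrakidney tumor 1 as the only intrakidney array. With the tubule mean as a covariate it was -0.14. The tubule mean rose over the intrakidney tumors in the same order as the hepatocyte mean, so that this fit cannot separate tubule from liver RNA. The part of liver RNA was not tested on its own.

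**Figure D5:**
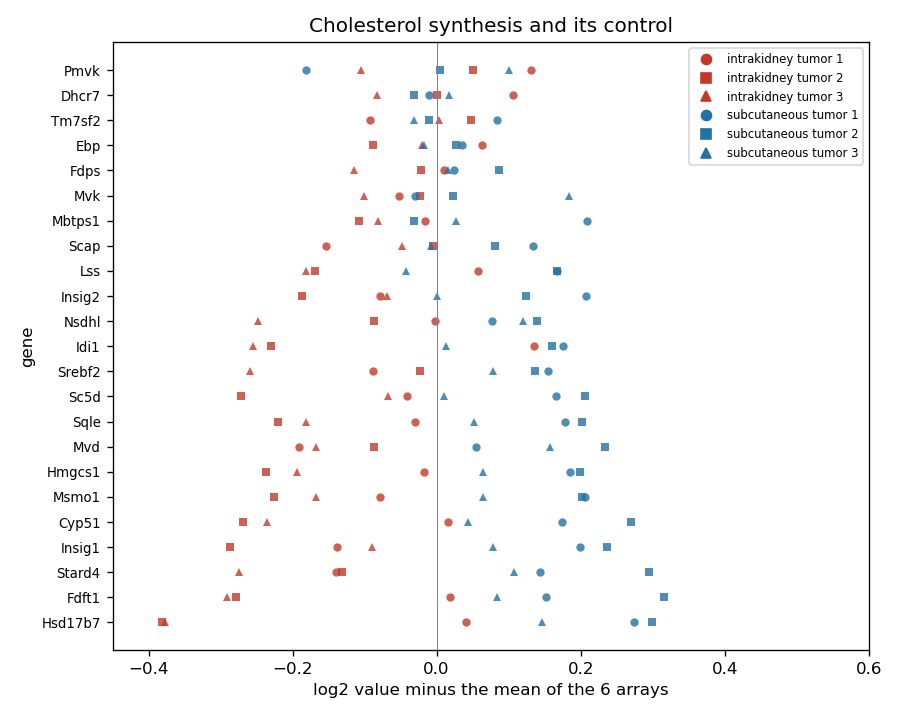
Log2 value minus the mean of the 6 arrays (horizontal axis) for Hmgcs1, Sqle, Srebf2 and 20 further genes of cholesterol synthesis and its control, with intrakidney tumors in red and subcutaneous tumors in blue. From Hsd17b7 at the bottom up to Insig2, and in Fdps, all intrakidney tumors lie left of all subcutaneous tumors, except in Idi1, while Pmvk and Dhcr7 at the top overlap.

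Promoter sequence is shown for genes of this group because they lay lower together and SREBPs are known to bind sterol elements beside CCAAT boxes, the sites of the factor NF-Y. RefSeq promoters (GRCm38.p6, 250 bases before to 50 after a start) were held for 33 of the 40 lipid genes and 27025 genes in all. The sterol element core TCACNCCAC, searched on both strands, was in 1 of the 33, Hmgcs1, in 0 of the 17 promoters held for the cholesterol synthesis list, and in 388 of all genes (1.44%). CCAAT on either strand was in 15 of those 17 (88.2%), in 17 of the 33 lipid gene promoters (51.5%) and in 41.1% of all. Direct repeats of AGGTCA spaced by 1 base, the PPAR type of site, were in 0 of the 33 and 0.0481% of all, and those spaced by 4 bases, the LXR type, in 0 and 0.0148%. A match is a run of letters in this window and not a shown site, and windows without one say nothing of the factor. The windows are on the gene's strand with the match in capitals; ATTGG is CCAAT on the opposite strand.
Hmgcs1, sterol core 137 bases before the start, chr13:119690184-119690252, plus strand: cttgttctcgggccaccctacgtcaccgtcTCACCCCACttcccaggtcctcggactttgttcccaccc
Hmgcs1, CCAAT 176 bases before the start, chr13:119690145-119690209, plus strand: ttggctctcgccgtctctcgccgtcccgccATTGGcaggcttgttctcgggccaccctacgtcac
Srebf2, CCAAT 135 bases before the start, chr15:82147104-82147168, plus strand: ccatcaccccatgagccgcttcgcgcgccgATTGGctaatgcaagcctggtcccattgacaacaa
Insig1, CCAAT 216 bases before the start, chr5:28071166-28071230, plus strand: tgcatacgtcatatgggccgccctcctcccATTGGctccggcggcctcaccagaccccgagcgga
Hsd17b7, CCAAT 73 bases before the start, chr1:169969244-169969308, minus strand: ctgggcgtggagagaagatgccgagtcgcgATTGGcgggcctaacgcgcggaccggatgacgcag
Cyp51, CCAAT 29 bases before the start, chr5:4104698-4104756, minus strand: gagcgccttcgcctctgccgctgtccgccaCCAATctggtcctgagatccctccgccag

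The Hmgcs1 windows overlap, so that its sterol core and a CCAAT box lie within the same stretch. CCAAT was in 9 of the 9 promoters held for cholesterol synthesis genes that were lower without overlap, Hmgcs1 among them. It was in 7 of the 9 held for the other cholesterol synthesis genes. One of these others, Idi1, measured 10.99, 10.62 and 10.60 against 11.03, 11.01 and 10.87, a difference of -0.23 with overlap. Whether CCAAT has a part in the differences was not tested.

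The 4 PPAR genes all lay above 0, with a median of 0.07, and none had an unadjusted p under 0.05. Ppara, Ppargc1a and Pparg were dim, with mean values at percentiles 17.9, 23.6 and 33.8 of all genes. Without dim genes Ppard alone remained, at 0.04. Pparg, the receptor that drives fat cell formation and lipid storage, measured 6.52, 6.55 and 6.68 in intrakidney and 6.29, 6.48 and 6.51 in subcutaneous tumors. The groups were apart by 0.02, with a difference of 0.16 ± 0.09 (SE, adjusted p = 0.711). Ppard, the broadly expressed receptor, measured 8.51, 8.56 and 8.51 against 8.45, 8.57 and 8.42. Ppara, the oxidation-driving receptor of liver and kidney tubule, measured 5.55, 5.53 and 5.63 against 5.43, 5.58 and 5.69, with a 95% interval of -0.20 to 0.21, and was not raised in intrakidney tumor 3 beyond the subcutaneous range. Ppargc1a, a coactivator gene of mitochondrial biogenesis, measured 5.60, 6.42 and 5.93 against 5.94, 5.84 and 5.89. Its intrakidney tumors spread on both sides of the subcutaneous ones (SD 0.41 against 0.05).

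The wider pathway was read from a list of 124 further genes, of which 111 were measured. With adjustment over all genes 3 of the 111 passed and all 3 rose, where 0.13% of all genes were higher past that threshold. Fabp4, the fatty acid carrier of fat cells, macrophages and capillary endothelium, rose by 2.08 on the log2 scale (adjusted p = 0.00637), from 7.08, 6.92 and 6.53 in subcutaneous to 8.89, 8.77 and 9.09 in intrakidney tumors. Thrsp, a lipogenic gene of fat and liver, rose by 0.72 (adjusted p = 0.0460) from 6.36, 6.68 and 6.55 to 7.30, 7.27 and 7.17. Cidec, which encodes a coat protein of lipid droplets, rose by 0.66 (adjusted p = 0.0280) from 6.77, 6.91 and 6.88 to 7.53, 7.44 and 7.59. Whichever single array was left out, Cidec and Thrsp did not pass, with adjusted p of 0.0510 to 0.153 and 0.112 to 0.160, and Fabp4 did not pass without subcutaneous tumor 2 (0.0587).

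The further fatty acid synthesis genes lay on both sides of 0, 8 of 14 above, with a median of 0.02. Without overlap 3 were higher (Thrsp, Elovl4 and Mlxipl) and 4 lower (Me1, Fads1, Fads2 and Acss2), where 8.41% and 6.53% of all genes were. Me1, whose malic enzyme supplies NADPH, measured 10.77, 10.81 and 10.86 against 11.26, 11.34 and 11.13 (-0.43 ± 0.08, SE, adjusted p = 0.125), and the desaturase gene Fads1 measured 11.23, 11.33 and 11.24 against 11.54, 11.65 and 11.48. Of 18 lipid droplet and lipolysis genes, 2 were higher and 4 lower without overlap, against the same shares of all genes, with Lpin1, a phosphatidate phosphatase gene, at -0.48 (adjusted p = 0.262). Vldlr, a lipoprotein receptor gene, lay at -0.38 (adjusted p = 0.325). Ch25h, the cholesterol 25-hydroxylase gene, measured 10.20, 9.84 and 9.87 against 9.04, 9.29 and 9.28, a difference of 0.77 ± 0.12 (SE) that missed the threshold (adjusted p = 0.0784), and Mylip, which promotes loss of the LDL receptor, lay at -0.27. The oxidation list had 1 higher and 2 lower without overlap among 20 measured genes, or 15%, close to the 14.9% of all genes, with Acot1 at 0.22 and Echs1 at -0.13. The PPAR partner list had 1 lower among 9, Ncoa1 at -0.10, while Pprc1 lay at 0.21.

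Some lipid genes typical of liver or tubule, picked after their values were seen, were high in intrakidney tumor 3. Ppara, a receptor gene of both tissues, was not, at 5.63 there against 5.43 to 5.69 in subcutaneous tumors. Fabp1, the liver fatty acid carrier gene, measured 4.17, 4.51 and 7.33 in the order of intrakidney tumors 1, 2 and 3, against 3.94 to 4.04 under the skin. Slc27a2, a fatty acid transporter gene of tubule and liver, measured 5.53, 6.72 and 8.68 against 5.68 to 5.85, and Apoa1, the main apolipoprotein gene of high-density lipoprotein, measured 7.19, 7.31 and 9.49 against 7.11 to 7.33. In each the high value was that of intrakidney tumor 3, the array with the highest Alb value, and the adjusted p were 0.708, 0.710 and 0.784.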

How the data were processed

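The authors measured 6 tumors on Affymetrix Mouse Gene 1.0 ST arrays and deposited log2 expression values. RMA and affy are the tools named, per the submitters' processing notes. Their versions and the build are not given in the sources used here. That the scale is log2 follows from the range of the values. RMA normalizes between arrays and compresses differences of dim genes.

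The table had 35512 rows, of which 21789 were paired with 1 gene, 1621 with several and 12102 were not named here. For a gene with several rows the row of highest mean was used, which applied to 5 of the 40 lipid genes. Their second rows gave differences on the same side, except Ppargc1a (0.09 and -0.03). Names came from the platform annotation, and all 40 were matched by Entrez identifier to RefSeq (GRCm38.p6).

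The comparison of sites used R 4.3.3 and limma 3.58.1 (mean per group, eBayes, two-sided, Benjamini-Hochberg over 19938 genes, threshold 0.05). The fit was tested on simulated data. p-values measure the spread between these 3 mice per group. Genes were named by rule: in each role the 3 of lowest p and any with an unadjusted p under 0.05, and of the pathway list those past the threshold and the 2 of lowest p per sub-list. Other lipid genes of the list are given in full, and other names were chosen after values were seen. The members and lists were chosen with earlier results of these data known. As alternatives, the values were quantile normalized or centred on array medians, offset by 16, averaged over rows, or kept only at or above the 40th percentile, or every row was tested. The model was also run with an intensity trend and robust prior, with array weights, with a block per replicate number, with the tubule mean as covariate, at a threshold of 0.01, and without arrays. Alternatives for the cholesterol synthesis list were added after its values were seen.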

Additional observations from a re-analysis of the deposited data

How the results depend on the processing

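No lipid gene of the list passed the adjusted threshold under the alternatives, except with an intensity trend and robust prior (1, Lpl) and with array weights (6, Lpl, Scd2, Elovl6, Hmgcs1, Sqle and Srebf2). The array weights favoured intrakidney tumor 3 and subcutaneous tumor 2 over all other arrays. Of 636 values of the 40 genes under alternatives, 590 kept their direction and side of the threshold, 7 passed it anew and 39 turned direction, the latter in 15 genes. Counts past the threshold moved more. Over all genes and over the 111 pathway genes they were 101 and 5 without dim genes, 138 and 6 with trend and robust prior, 624 and 17 with array weights, 0 and 0 with every row tested, 5 and 0 with the tubule covariate, 5 and 1 at a threshold of 0.01, and 30 and 1 without intrakidney tumors 2 and 3. An offset of 16 gave 74 over all genes. Leaving out single arrays gave 2 (without subcutaneous tumor 1) to 33 (without intrakidney tumor 3) over all genes, against 46, and 0 to 1 over the pathway, against 3. With the replicate number as a block the counts were 0 and 0, and no lipid gene of the list passed. Same-numbered tumors deviated with correlations of 0.374, -0.159 and 0.104, so that the numbers were not taken to pair the tumors. The cause of these moves was not tested.

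The cholesterol synthesis median was -0.29 with array weights, -0.14 with the tubule covariate, -0.13 without intrakidney tumors 2 and 3, and -0.27 to -0.16 without single arrays. The cholesterol role median was -0.18 to -0.060 without single arrays. Leaving out intrakidney tumors 2 and 3 leaves 1 intrakidney array, assumed to vary like the subcutaneous ones. The medians were then 0.17 for uptake and 0.064 for synthesis. In that setting 28 lipid genes and 17 cholesterol synthesis genes did not overlap, but 1 array overlaps less easily than 3. The share of all genes without overlap was not taken for that setting, so that these counts cannot show an excess over other genes.

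Some values turned direction. The Alb difference, 2.75 as reported, became -0.18 with the tubule covariate, and Ppargc1a and Fabp3, at 0.09 and 0.08 as reported, became -0.29 and -0.28 without intrakidney tumors 2 and 3. With array weights they were Ppard at -0.016, Fasn -0.019, Dhcr7 -0.027, Elovl5 -0.036, Pmvk -0.040 and Apoe -0.086, and with median centring Etfa at 0.0063. With the tubule covariate they were Fabp5 at -0.0060, Ppargc1a -0.048, Ppara -0.054, Fabp3 -0.14, Acadm 0.0017, Acsl4 0.021, Hadha 0.067 and Etfa 0.088. Without intrakidney tumors 2 and 3 they were also Ppara at -0.014, Hadha 0.079, Acsl4 0.080 and Etfa 0.12. Without single arrays the ranges were -0.083 to 0.015 for Acadm, -0.073 to 0.042 for Acsl4, -0.021 to 0.14 for Acsl5, -0.027 to 0.20 for Cd36, -0.033 to 0.062 for Dhcr7, -0.039 to 0.041 for Elovl5, -0.066 to 0.045 for Etfa, -0.060 to 0.25 for Fabp3, -0.029 to 0.053 for Fasn, -0.062 to 0.019 for Hadha, -0.027 to 0.12 for Pmvk, -0.063 to 0.069 for Ppara, -0.13 to 0.28 for Ppargc1a and -0.018 to 0.11 for Scd1. Quantile normalization, averaging of rows and an offset turned no lipid gene of the list. With 3 arrays per group the median standard error over all genes was 0.094 on the log2 scale, which limits what differences of the size seen here can show.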
